A study of Macaca mulatta with 10 samples.

Results

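A group of 10 smooth muscle contractile genes, whose proteins mark the peritubular myoid cells of the testis, were followed in whole testes of juvenile rhesus monkeys (Macaca mulatta). They were ACTA2, ACTG2, MYH11, MYLK, TAGLN, CNN1, SMTN, CALD1, TPM1 and TPM2. A gene was taken where the deposited count table names a locus by exactly that symbol; of several loci with that symbol, the most highly counted was used. Of the 26813 loci in the table, 9 were the genes sought. SMTN was the exception, because its exons were joined with a neighbouring annotated locus, LOC107000649, in a single locus whose reads could not be divided; that joined locus is described apart and is not counted among the 9.

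Each library was made from the total RNA of the right testis of a separate wild type animal. Animals were infused in pulses, either with vehicle or with a mixture of the pituitary hormones FSH and LH, the latter over 48 h or 96 h. The vehicle group held 3 animals, TP07, TP09 and TP11, aged 24, 14 and 15 months. The 48 h group held 3 animals, TP08, TP10 and TP12, aged 22, 14 and 15 months. The 96 h group held 4 animals, TP15 to TP18, all aged 14 months. How long vehicle was infused is not given in the labels. The 96 h animals carry the highest animal numbers, so a batch that followed the numbering cannot be told apart from the 96 h group.

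Peritubular myoid cells are flat, smooth-muscle-like cells that wrap the seminiferous tubules. In the adult testis their contractions move luminal fluid and sperm, and in the juvenile testis they form the tubule wall together with the basement membrane they help to build. In smooth muscle, actin thin filaments slide along myosin once the myosin light chain is phosphorylated, while calponin, caldesmon and tropomyosin sit on the thin filament and modulate that sliding. The genes of this apparatus are classic targets of the transcription factor SRF and its partners. None of the genes is exclusive to myoid cells, since the smooth muscle of blood vessels, for one, makes the same proteins. Each locus also pools all its transcript models, 29 for MYLK, 26 for TPM1 and 15 for CALD1. What part of their RNA came from cells other than smooth muscle was not tested. In RNA from a whole organ, fewer cells of a type and less RNA per cell cannot be told apart.

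Counts per library totalled 21824233 to 30375928. Levels are given as CPM, read counts relative to a library's size, scaled by the trimmed mean of M values (TMM), and levels of different genes are compared per kilobase of exon. Changes are log2 fold changes with standard errors from the quasi-likelihood test of edgeR, with p adjusted over all 26813 loci by Benjamini-Hochberg and a threshold of 0.05. Both hormone groups were compared with the same 3 vehicle animals, so those comparisons are not independent.

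The vehicle testes already contained RNA of every one of the 9 genes. Per kilobase of exon, the vehicle level was highest for MYH11, the smooth muscle myosin heavy chain, at 38.8 ± 2.1 CPM per kilobase (SD, n = 3). CALD1, caldesmon, followed at 29.5 ± 7.33 CPM per kilobase, and CNN1, calponin, at 18.8 ± 1.91 CPM per kilobase. The ranges of these 3 genes over the vehicle animals did not overlap. TAGLN, MYLK and TPM2 came next at 16.3, 16.1 and 15.3 CPM per kilobase, with overlapping ranges that also met the range of CNN1. TPM1 and ACTA2 stood at 11.8 and 11.2 CPM per kilobase and did not differ beyond their spread. ACTG2 was far below, at 0.326 ± 0.0539 CPM per kilobase. The joined SMTN locus had 1.27 ± 0.266 CPM per kilobase. ACTA2, the actin by which myoid cells are usually stained, was thus next to last among the 9 genes in the vehicle testis. With the longest transcript model as the length, TPM1 whose locus joins 26 models, stood at 22.7 in place of 11.8 CPM per kilobase, and the joined SMTN locus at 2.42 in place of 1.27.

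ACTA2 encodes smooth muscle alpha-actin, the main thin filament actin of vascular smooth muscle and of myoid cells. Its locus lies on the minus strand of rheMac8 at chr9:84116127-84144099. ACTA2 stood at 12.02, 20.3 and 24.3 CPM in vehicle animals TP07, TP09 and TP11. It stood at 157, 128.0 and 100.4 CPM in 48 h animals TP08, TP10 and TP12, and at 109.5, 109.9, 123.5 and 48.6 CPM in 96 h animals TP15 to TP18. Every hormone-treated animal lay above every vehicle animal; the lowest treated animal was TP18 and the lowest vehicle animal was TP07, the oldest. At 48 h ACTA2 rose by 2.77 ± 0.373 on the log2 scale (edgeR adjusted p = 0.00216). At 96 h it was higher than in vehicle by 2.37 ± 0.356 on the log2 scale (edgeR adjusted p = 0.00282). Both calls held in 21 of 21 alternative analyses. Among animals of like age, the 48 h level was 6.30 times the vehicle level at 14 months, 4.13 times at 15 months and 13.0 times in the animals over 20 months.

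ACTG2 encodes smooth muscle gamma-actin, the actin of gut and other visceral muscle. Its locus lies on the plus strand at chr13:74892056-74919698. ACTG2 was covered by 13, 14 and 13 reads in the vehicle libraries TP07, TP09 and TP11, which is 0.429, 0.559 and 0.420 CPM. It reached 1.59, 3.68 and 1.88 CPM in TP08, TP10 and TP12, and 5.52, 5.03, 2.18 and 0.823 CPM in TP15 to TP18. Treated and vehicle animals did not overlap, although the 96 h animals spread widely and TP18 was again the lowest of them. ACTG2 rose by 2.34 ± 0.655 on the log2 scale at 48 h (edgeR adjusted p = 0.0426) and by 2.85 ± 0.637 at 96 h (edgeR adjusted p = 0.0145). Every locus in the table reached 1 CPM in at least 3 libraries, and ACTG2 did so in 0 of 3 vehicle, 3 of 3 48 h and 3 of 4 96 h libraries. It therefore entered the table only through the treated animals, and its change is given as a description of a gene selected on that side. The 48 h call held in 9 of 21 alternatives and was lost without any one of the 6 animals compared (adjusted p 0.0675 to 0.124). The 96 h call held in 16 of 21 and was lost without TP07 (adjusted p = 0.0598) or TP11 (adjusted p = 0.0591). Actin genes have nearly identical coding sequences, so reads of ACTA2 and ACTG2 could in part have been assigned to one another or to other actins.

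**Figure D1:**
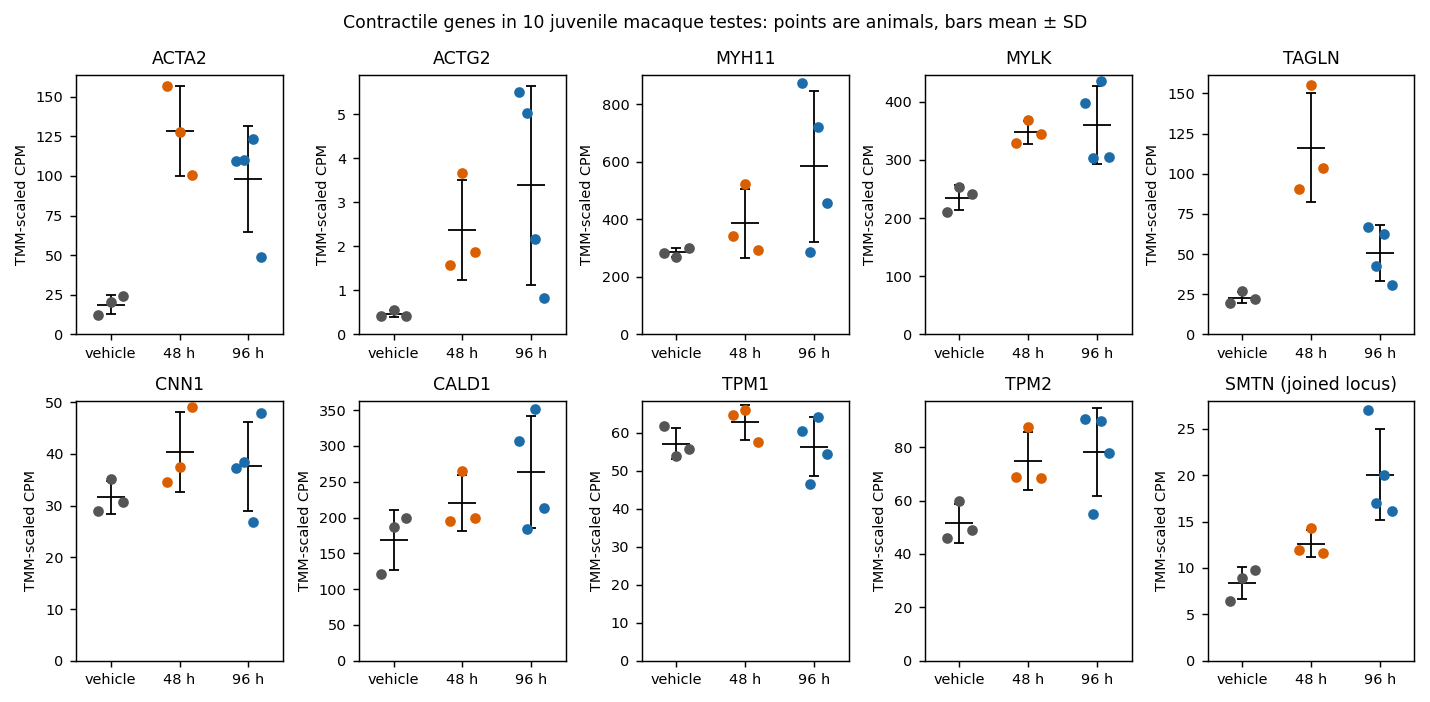
Level of each contractile gene and of the joined SMTN locus in every testis, as TMM-scaled CPM on linear axes that start at 0, by group (vehicle, n = 3; 48 h, n = 3; 96 h, n = 4); points are animals, and the black marks give the mean ± SD. ACTA2 and TAGLN show the widest separation of the 48 h animals from vehicle, while TPM1 and CNN1 overlap between groups.

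MYH11 is the motor protein of smooth muscle. Its locus is on the minus strand at chr20:15507333-15660573. MYH11 stood at 284.5, 270.9 and 302 CPM in TP07, TP09 and TP11, and at 342, 522.0 and 295 CPM in TP08, TP10 and TP12. At 96 h the animals parted, with 873 CPM in TP15 and 722 CPM in TP17 but 457.5 CPM in TP18 and 286 CPM in TP16. TP16 lay within the vehicle range, so the groups overlapped at both times. The log2 fold changes were 0.44 ± 0.363 at 48 h (edgeR adjusted p = 0.472) and 1.03 ± 0.348 at 96 h (edgeR adjusted p = 0.0679). The 96 h value passed the threshold without TP16 (adjusted p = 0.0141), in the exact test of edgeR (adjusted p = 0.0187) and in DESeq2 (adjusted p = 0.0067). Exons of MYH11 share 1384 bases with a locus on the opposite strand named CTSD,NDE1, whose mean count was 466 reads; whether counting used the strand is not given in the sources used here.

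MYLK, myosin light chain kinase, switches the smooth muscle motor on. Its locus is on the minus strand at chr2:44839393-45063403. MYLK stood at 211, 253 and 242 CPM in TP07, TP09 and TP11, at 330, 368 and 344 CPM in TP08, TP10 and TP12, and at 397, 303, 436 and 304 CPM in TP15 to TP18. No treated animal fell into the vehicle range, and the 48 h animals lay close together. MYLK rose by 0.56 ± 0.143 on the log2 scale at 48 h (edgeR adjusted p = 0.0268) and by 0.62 ± 0.135 at 96 h (edgeR adjusted p = 0.0124). The ratio of 48 h to vehicle was 1.46 at 14 months, 1.42 at 15 months and 1.57 over 20 months. The 48 h call was lost when any one of its 6 animals was left out (adjusted p 0.0558 to 0.0897), and the 96 h call without TP07 (adjusted p = 0.0581). A further locus named MYLK lies apart from the one used, and the exons of MYLK share 760 bases with an unnamed locus on the opposite strand, whose mean count was 55 reads.

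TAGLN encodes transgelin, or SM22, an actin-binding protein that appears early in smooth muscle differentiation. Its locus is on the plus strand at chr14:110029887-110035573. TAGLN stood at 19.7, 26.8 and 22.2 CPM in TP07, TP09 and TP11. It reached 90.7, 155 and 103 CPM in TP08, TP10 and TP12, and stood at 67.1, 42.3, 62.7 and 30.5 CPM in TP15 to TP18. The 3 groups did not overlap at all: vehicle was lowest, 48 h highest and 96 h between them. TAGLN rose by 2.35 ± 0.31 on the log2 scale at 48 h (edgeR adjusted p = 0.00183), in 21 of 21 alternatives, and by 1.15 ± 0.287 at 96 h (edgeR adjusted p = 0.0246), in 14 of 21. The 96 h call was lost without TP07 (adjusted p = 0.0928), TP11 (0.081), TP15 (0.0505) or TP17 (0.061).

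CNN1 encodes calponin, a thin filament protein of mature smooth muscle. Its locus is on the plus strand at chr19:11581580-11593181. CNN1 stood at 29.0, 35.2 and 30.6 CPM in TP07, TP09 and TP11, at 34.5, 37.4 and 49.1 CPM in TP08, TP10 and TP12, and at 37.2, 38.5, 26.9 and 47.9 CPM in TP15 to TP18. The groups overlapped, and the lowest value of all belonged to a 96 h animal, TP17. The log2 fold changes were 0.35 ± 0.195 at 48 h (edgeR adjusted p = 0.267) and 0.25 ± 0.183 at 96 h (edgeR adjusted p = 0.359). CNN1 passed the threshold in 0 of 21 alternatives at either time.

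CALD1, caldesmon, restrains the actomyosin motor on the thin filament. Its locus is on the plus strand at chr3:161025226-161264863. CALD1 stood at 121, 186 and 199.98 CPM in TP07, TP09 and TP11, at 195, 265 and 199.7 CPM in TP08, TP10 and TP12, and at 307, 184, 351.5 and 213 CPM in TP15 to TP18. The groups overlapped, with TP07 far below the other vehicle animals and TP15 and TP17 above all others. The log2 fold changes were 0.38 ± 0.263 at 48 h (edgeR adjusted p = 0.381) and 0.64 ± 0.249 at 96 h (edgeR adjusted p = 0.101). The 96 h value passed the threshold in DESeq2 (adjusted p = 0.034).

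The tropomyosins TPM1 and TPM2 lie along the thin filament and gate access of myosin to actin. TPM1 (chr7:39639143-39668434, plus strand) ran between 53.8 and 61.8 CPM in vehicle, between 57.5 and 66.0 CPM after 48 h and between 46.5 and 64.2 CPM after 96 h. Its groups overlapped throughout, and its log2 fold changes were 0.13 ± 0.122 and -0.02 ± 0.114 (edgeR adjusted p = 0.506 and 0.917). TPM2 (chr15:48566250-48576144, plus strand) stood at 45.8, 59.8 and 48.9 CPM in TP07, TP09 and TP11, at 68.8, 87.4 and 68.4 CPM in TP08, TP10 and TP12, and at 90.4, 55.1, 89.7 and 77.9 CPM in TP15 to TP18. All 48 h animals lay above vehicle, whereas TP16 at 96 h lay within the vehicle range. The TPM2 log2 fold change was 0.54 ± 0.184 at 48 h and missed the threshold (edgeR adjusted p = 0.0826), and TPM2 rose by 0.60 ± 0.174 at 96 h (edgeR adjusted p = 0.0371). The 96 h call held in 11 of 21 alternatives and was lost without TP07 (adjusted p = 0.133), TP11 (0.115), TP15 (0.0799), TP17 (0.0947) or TP18 (0.0604).

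SMTN encodes smoothelin, a protein of fully contractile smooth muscle. Its joined locus lies at chr10:72947444-72970730 on the plus strand. The joined locus stood at 6.41, 8.86 and 9.82 CPM in TP07, TP09 and TP11, at 11.9, 14.3 and 11.6 CPM in TP08, TP10 and TP12, and at 27.0, 17.04, 19.99 and 16.2 CPM in TP15 to TP18. Its 3 groups did not overlap, and here 96 h was the highest. It was higher by 0.59 ± 0.221 on the log2 scale at 48 h (edgeR adjusted p = 0.107) and rose by 1.26 ± 0.212 at 96 h (edgeR adjusted p = 0.00345), a call that held in 21 of 21 alternatives.

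**Figure D2:**
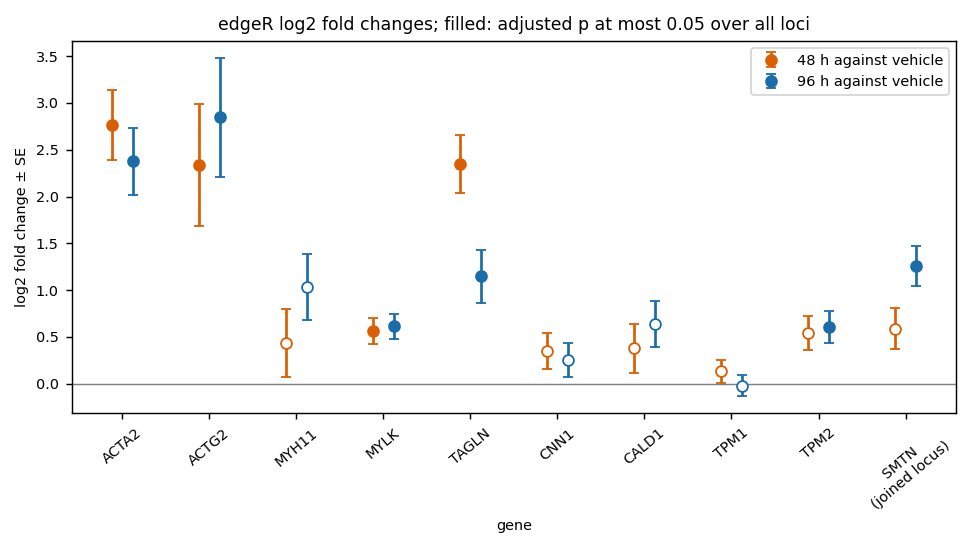
The log2 fold change (± SE, edgeR) of each contractile gene and of the joined SMTN locus after 48 h and after 96 h, each against the same 3 vehicle animals; filled points have an adjusted p of at most 0.05 over all loci. ACTA2, ACTG2 and TAGLN lie above 2 on the log2 scale at 48 h, MYLK is near 0.5 at both times, and TPM1 lies near 0.

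Counted together, 4 of the 9 genes rose at 48 h (ACTA2, ACTG2, TAGLN and MYLK) and 0 fell, beside 8.53% of all loci that rose and 3.67% that fell. Among protein-coding loci that background was 13.7%. In 5 of the 9 genes every 48 h animal lay above every vehicle animal, beside 18.1% of all loci and 27.7% of protein-coding loci. At 96 h, 5 of the 9 genes rose (the same 4 and TPM2) and 0 fell, beside 10.6% of all loci that rose, 16.3% of protein-coding loci that rose and 6.89% of all loci that fell; 4 of the 9 did not overlap with vehicle, beside 15.9% of all loci and 23.5% of protein-coding loci. Leaving aside ACTG2, 3 of 8 genes rose at 48 h and 4 of 8 at 96 h, and 4 of 8 and 3 of 8 did not overlap with vehicle. DESeq2 and the exact test of edgeR each called 5 of the 9 at 48 h, TPM2 being added, where 12.6% and 10.6% of all loci rose. At 96 h DESeq2 called 7 (MYH11 and CALD1 added) and the exact test 6 (MYH11 added), where 14.6% and 9.63% of all loci rose. The limma voom fit called 3 at 48 h and 4 at 96 h, without ACTG2 at either time, where 8.56% and 10.1% of all loci rose. The median log2 fold change of the 9 genes was 0.54 at 48 h and 0.64 at 96 h, where the medians over all loci were -0.071 and -0.012. The 48 h count was 2 (ACTA2 and TAGLN) without any one of the 6 animals compared or with upper-quartile scaling, which lowered the median of all loci to -0.197 and turned their split from 2288 higher and 985 lower to 1392 higher and 1732 lower. The 96 h count was 1 (ACTA2) without TP07, 2 (ACTA2 and MYLK) without TP11, and 3 (ACTA2, ACTG2 and MYLK) without TP15 or TP17; upper-quartile scaling moved the median of all loci to -0.160 there and their split from 2836 higher and 1848 lower to 1687 higher and 3532 lower. Fewer of all loci rose in these fits too: 5.94% without TP07, 6.01% without TP11, 9.06% without TP15 and 7.1% without TP17. At 48 h the share without any one of the 6 animals ran from 4.62% to 7.29%.

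Because ages differed between the groups, the comparison was also read with age in view. Blocked by age class (the classes being 14 months, 15 months and over 20), 3 of the 9 genes passed at 48 h (ACTA2, TAGLN and MYLK) and 1 of the 9, ACTA2, at 96 h. Over all loci, 8.5% rose at 48 h under that block and 5.03% at 96 h, against 8.53% and 10.6% without it. Without TP07 and TP08, the animals over 20 months, the counts were 2 (ACTA2 and TAGLN) and 1 (ACTA2), and the shares of all loci that rose were 2.6% and 5.4%. The log2 fold changes at 96 h without those animals were 2.79 for ACTG2, 1.05 for TAGLN, 0.54 for MYLK and 0.53 for TPM2, against 2.85, 1.15, 0.62 and 0.60 with them. Under the age block they were 2.31, 0.81, 0.52 and 0.39 in the same order, and none of the 4 passed (edgeR adjusted p 0.116 to 0.293). All 96 h animals were aged 14 months, and TP09 was the only vehicle animal of that age. Under the block the 96 h comparison therefore leans mostly on TP09 and on TP10, the 48 h animal of like age. What part age had in the lost calls cannot be told.

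In the direct comparison of 96 h with 48 h, 0 of the 9 genes passed the threshold in edgeR, beside 0.817% of all loci that were higher and 0.25% that were lower. TAGLN was the 1 gene of the 9 with an unadjusted p under 0.05, as were 20.9% of all loci, at -1.20 ± 0.274 on the log2 scale (edgeR adjusted p = 0.0735). All 4 of its 96 h animals lay below all 48 h animals, a pattern seen in 8.61% of all loci. The exact test of edgeR, DESeq2 and limma voom each called 1 of the 9 genes, TAGLN. Of all loci, 0.791%, 2.81% and 0.246% were lower in these tests, in the same order, and 1.83%, 4.0% and 0.884% were higher. For ACTA2 the difference was -0.39 ± 0.323 (edgeR adjusted p = 0.501), and for MYH11 it was 0.60 ± 0.343 in the other direction (edgeR adjusted p = 0.339). The joined SMTN locus was higher in every 96 h animal than in any 48 h animal, by 0.67 ± 0.207 (edgeR adjusted p = 0.129), a lack of overlap seen in 7.93% of all loci.

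The summed RNA level of the 9 genes differed between the groups, and so did the shares of single genes in it. The summed level of the 9 genes was 139 to 168 CPM per kilobase in vehicle, 294 to 393 in the 48 h animals and 234 to 377 in the 96 h animals. The ACTA2 share of that sum averaged 6.97% (SD 1.76) over the 3 vehicle animals, 23.0% (SD 5.57) over the 48 h animals and 19.2% (SD 6.24) over the 96 h animals, without overlap between vehicle and either treated group. The TAGLN share was 10.3% ± 0.962, 24.5% ± 3.85 and 11.7% ± 1.62 in the same order. The MYH11 share was 24.8% ± 2.92 in vehicle, 15.5% ± 2.3 at 48 h and 25.3% ± 6.44 at 96 h. Shares add up to a fixed total, so a gene with an even level loses share where another gains.

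**Figure D3:**
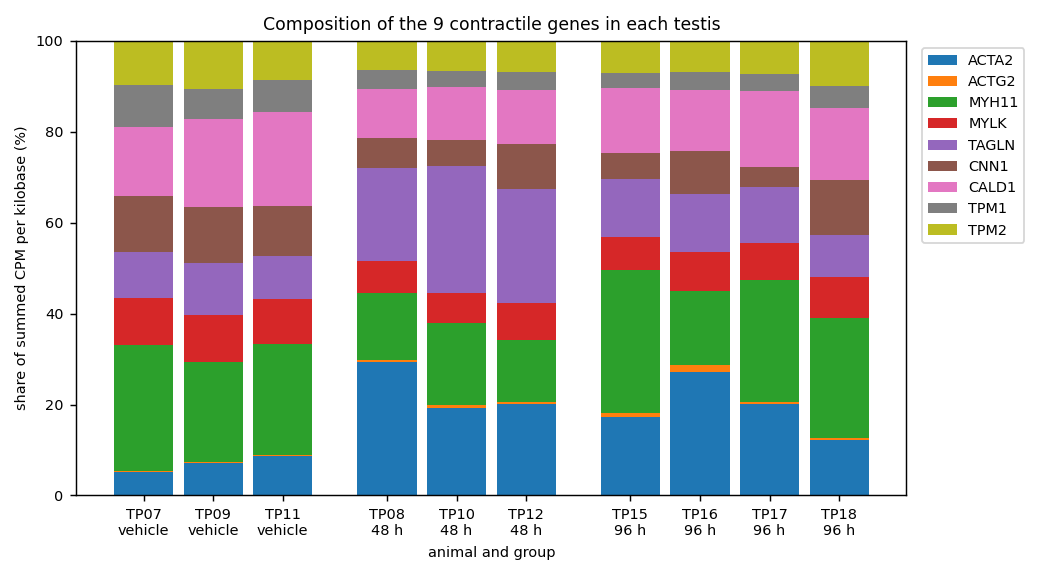
Share (%) of each of the 9 contractile genes in their summed level, in CPM per kilobase of exon, for each animal; bars start at 0 and add up to the whole. The ACTA2 segment spans 5.12% to 8.61% in vehicle animals and 19.3% to 29.4% at 48 h, and the TAGLN segment is widest at 48 h.

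The order of the genes per kilobase also differed between the groups. At 48 h TAGLN led with 82.9 ± 24.3 CPM per kilobase and ACTA2 followed with 76.0 ± 16.7, a pair that did not differ beyond its spread. MYH11 came next at 52.5 ± 16.3 CPM per kilobase, a range that met that of TAGLN and ACTA2, and then CALD1 at 38.3 ± 6.77. At 96 h the order was MYH11 with 79.5 ± 35.8 CPM per kilobase, ACTA2 with 58.0 ± 19.8, CALD1 with 45.9 ± 13.7 and TAGLN with 36.1 ± 12.3, all with overlapping ranges.

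Ratios to non-muscle relatives within a library are free of scaling between libraries. The ratio of ACTA2 to ACTB, the cytoplasmic beta-actin found in nearly every cell, was 0.0593 ± 0.0269 in vehicle, 0.164 ± 0.0391 at 48 h and 0.143 ± 0.0368 at 96 h, and vehicle overlapped with neither treated group. The ratio of ACTG2 to ACTB was 0.00143 ± 0.00034 in vehicle, 0.00292 ± 0.000847 at 48 h and 0.00498 ± 0.00331 at 96 h; every 48 h animal lay above vehicle, whereas TP18 at 96 h, with 0.00152, lay within the vehicle range. ACTB itself rose by 1.25 ± 0.178 on the log2 scale at 48 h (edgeR adjusted p = 0.00187). The ratio of TAGLN to TAGLN2, its relative outside muscle, was 0.644 ± 0.0549, 2.15 ± 0.255 and 0.963 ± 0.214, and every 48 h animal lay above all other animals. The ratio of MYH11 to MYH9, a non-muscle myosin, was 0.681 ± 0.0651, 0.827 ± 0.166 and 1.17 ± 0.327, with overlap between all groups. The ratio of TPM1 to TPM3 was lower in every treated animal than in any vehicle animal, at 0.415 ± 0.0153, 0.279 ± 0.0596 and 0.296 ± 0.0502; TPM3, a tropomyosin of non-muscle cells as well as slow muscle, rose at both times. The ratios of TPM2 to TPM4 and of CNN1 to CNN3 overlapped between all groups. The locus named TPM4 has 2 exonic blocks, where those of TPM1, TPM2 and TPM3 have 15, 10 and 13. Whether it is the TPM4 gene or a copy of it was not tested.

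**Figure D4:**
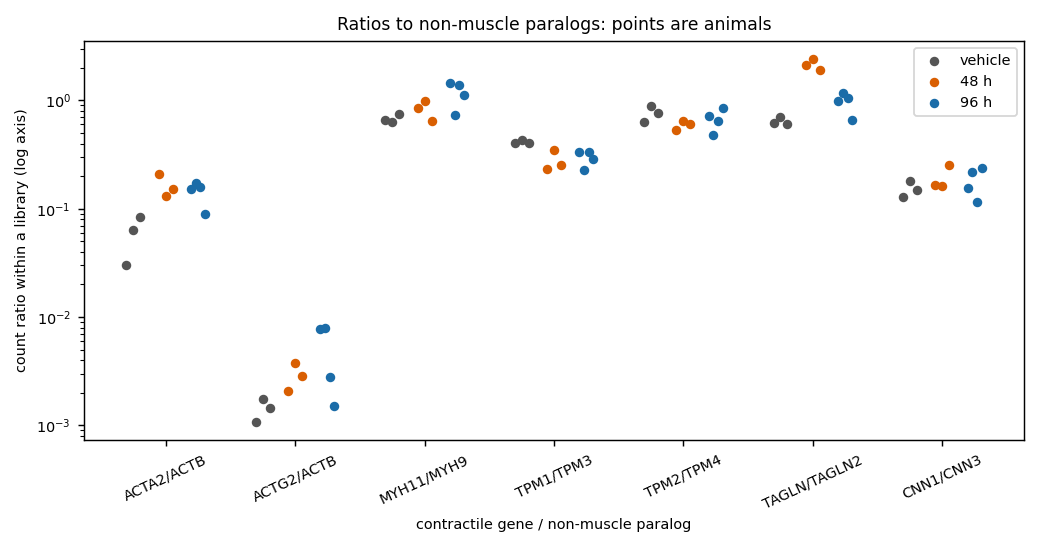
Ratio of counts of each contractile gene to a non-muscle relative within each library, on a log axis, by group; points are animals. The ratio of TAGLN to TAGLN2 lies between 1.91 and 2.42 at 48 h and between 0.604 and 0.707 in vehicle, whereas that of CNN1 to CNN3 overlaps between the groups.

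Ratios between members were chosen after their values were seen. The ratio of ACTA2 to MYH11 counts was 0.0423, 0.0750 and 0.0806 in TP07, TP09 and TP11, and 0.458, 0.245 and 0.340 in TP08, TP10 and TP12. At 96 h it was 0.125, 0.385, 0.171 and 0.106 in TP15 to TP18, above every vehicle animal. The ratio of TAGLN to CNN1 ranged over 0.678 to 0.760 in vehicle animals, 2.102 to 4.14 in 48 h animals and 0.637 to 2.33 in 96 h animals.

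Across the 10 libraries the members fell into more than 1 pattern, given as Pearson r of log2 CPM, a description of points that share the group differences and the libraries. ACTA2 went with MYLK (r = 0.89, n = 10) and TAGLN (r = 0.87) and less with MYH11 (r = 0.51) and CNN1 (r = 0.28). MYH11 went with CALD1 (r = 0.86) and TPM2 (r = 0.85) but not with CNN1 (r = -0.11). Among the 13850 symbols searched, the libraries' log2 CPM most like that of ACTA2 belonged to SDC3 (r = 0.989, n = 10), HEYL (0.981), TIMP1 (0.979), IDH1 (0.978), AMMECR1 (0.977) and EPS8L3 (0.977). SDC3 is a cell surface proteoglycan, HEYL a repressor downstream of Notch receptors and TIMP1 an inhibitor of matrix metalloproteinases. SDC3 averaged 22.0 CPM in vehicle, 65.9 at 48 h and 62.7 at 96 h. The symbols most like MYH11 were TSPAN18 (r = 0.963, n = 10), IGFBP5 (0.961), C1QTNF1 (0.958), GOLGA2 (0.952), ARL6IP5 (0.95) and ITPRIPL2 (0.948). IGFBP5, a secreted binding protein of insulin-like growth factors, reached 1340 CPM in TP15 and 1263 CPM in TP17 but 303.5 CPM in TP16, the same order as MYH11.

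The rest of the contractile machinery was read from lists chosen with earlier results of these data known. The counts of these lists stand beside 8.53% of all loci that rose and 3.67% that fell at 48 h. At 96 h those shares were 10.6% and 6.89%. Among protein-coding loci, 13.7% rose at 48 h and 16.3% at 96 h. Of 23 measured genes of the smooth muscle apparatus outside the 9, 5 rose and 0 fell at 48 h, with a median log2 fold change of 0.28. These were the myosin light chains MYL9, MYL6 and MYL12B, the actin cross-linker FLNA and the adhesion protein VCL. In 9 of the 23 genes all 48 h animals lay above all vehicle animals. In 4 they lay below them: LMOD1, SYNM, FHL1 and ITGA8. The log2 fold changes of those 4 genes were -0.37, -0.32, -0.28 and -0.39. None of the 4 passed the threshold (edgeR adjusted p 0.0789 to 0.515). Of all 26813 loci, 4841 had every 48 h animal above every vehicle animal, and 4826 had every 48 h animal below. Among the 15535 protein-coding loci these counts were 4296 and 2079. MYL9, the light chain that MYLK phosphorylates, rose by 0.80 ± 0.133 on the log2 scale at 48 h (edgeR adjusted p = 0.00396). At 96 h 9 of the 23 rose, DES, PDLIM3, ACTN1 and PPP1R12A being added, and 3 fell, LMOD1, SYNM and FHL1. DES, the muscle intermediate filament desmin, rose by 1.39 ± 0.385 at 96 h (edgeR adjusted p = 0.0351). LMOD1, a nucleator of smooth muscle actin filaments, fell by 0.94 on the log2 scale at 96 h, with a standard error of 0.131 (edgeR adjusted p = 0.00132), while ACTA2 was raised in the same animals. Over the alternatives the number that rose ran between 4 and 7 for 48 h and between 1 and 11 for 96 h.

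Relatives of the contractile genes were read as well, most of them non-muscle genes, beside the cardiac ACTC1 and MYLK3 and a relative of SMTN, SMTNL2. Of 13 measured, 4 rose at 48 h (ACTB, ACTG1, TPM3 and the locus named TPM4) and MYLK3, the cardiac light chain kinase, fell, with a median of 0.54. At 96 h 6 rose, MYH10 and CNN2 being added, and MYLK3 fell again. Over the alternatives 3 to 7 rose at either time. ACTG1, the cytoplasmic gamma-actin, rose by 0.54 ± 0.095 at 48 h (edgeR adjusted p = 0.00523). MYH9 did not pass at either time (0.14 ± 0.161, edgeR adjusted p = 0.616, and 0.19 ± 0.151, edgeR adjusted p = 0.406).

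A list of 9 measured genes held SRF, its coactivators and other regulators, KLF4 and FOXO4 among them, that are not coactivators. SRF rose by 0.33 ± 0.081 at 48 h (edgeR adjusted p = 0.0215) and by 0.29 ± 0.076 at 96 h (edgeR adjusted p = 0.027). It ran from 39.9 to 41.2 CPM in vehicle and from 46.9 to 53.7 CPM in the treated animals, without overlap. MYOCD, myocardin, the coactivator most restricted to smooth and heart muscle, stood at 3.40, 6.55 and 8.01 CPM in TP07, TP09 and TP11, between 5.84 and 10.6 CPM at 48 h and between 6.11 and 16.03 CPM at 96 h, and its log2 fold changes were 0.56 ± 0.4 (edgeR adjusted p = 0.392) and 1.10 ± 0.382 (edgeR adjusted p = 0.0715). MRTFB, an actin-regulated coactivator, rose by 0.39 ± 0.097 at 96 h (edgeR adjusted p = 0.0208), as did the SRF partner ELK1; MRTFA was higher by 0.41 ± 0.159 and did not pass (edgeR adjusted p = 0.0976). With upper-quartile scaling 0 of the 9 rose at either time and FOXO4 fell at 96 h. Of 7 measured SRF-responsive genes, ZYX rose at 48 h, and ZYX and TGFB1I1 at 96 h. In the list of 9 genes above, 1 rose at 48 h and 3 at 96 h, where 8.53% and 10.6% of all loci rose.

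Of 20 measured receptors and signalling genes of contraction, 2 rose and 4 fell at 48 h, with a median of -0.04. Of all loci, 8.53% rose and 3.67% fell at that time. RHOA, the GTPase that restrains myosin phosphatase through its kinases, and ITPR1, a calcium release channel, rose. EDNRB, EDN1, PTGFR and PRKG1 fell; EDN1 encodes endothelin, a peptide that contracts myoid cells in rodents, and PRKG1 the cGMP-dependent kinase that relaxes smooth muscle. EDNRB fell by 1.43 on the log2 scale, with a standard error of 0.329 (edgeR adjusted p = 0.0209). At 96 h 5 rose (EDNRA, RHOA, ROCK2, KCNMB1 and ITPR1) and 2 fell (EDN1 and PTGFR), beside 10.6% of all loci that rose and 6.89% that fell. EDNRA, the endothelin receptor that drives contraction, rose by 1.77 ± 0.376 (edgeR adjusted p = 0.0131), from 29.9 to 66.0 CPM in vehicle to 107 to 258 CPM at 96 h. Without the animals over 20 months, 0 of the 20 passed at 48 h, and at 96 h 0 rose and 2 fell.

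Markers of other cells were read beside the members. Of 10 genes of vascular smooth muscle and pericytes, 0 passed at 48 h in edgeR (1 with an unadjusted p under 0.05, and 0 in the exact test, DESeq2 or voom), and their summed level ran from 241 to 332 CPM in vehicle and from 272.5 to 418 CPM at 48 h. At 48 h 6 of the 10 had a positive log2 fold change and 4 a negative one, with a median of 0.07. RGS5, a defining pericyte gene, differed by -0.004 ± 0.224 at 48 h (edgeR adjusted p = 0.992), and NOTCH3 by -0.50 ± 0.408 (edgeR adjusted p = 0.459). CSPG4 and PDGFRB were higher by 0.73 ± 0.383 and 0.40 ± 0.256 and did not pass (edgeR adjusted p = 0.246 and 0.337). At 96 h CSPG4 and PDGFRB rose, and the sum ran from 328 to 499 CPM. Of 9 endothelial genes, 0 passed at either time in edgeR (0 with an unadjusted p under 0.05, and 0 in the exact test, DESeq2 or voom). Of the marker genes measured, 0 were at 0 in any library.

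Of 12 genes of peritubular and interstitial stroma, 0 passed at 48 h in edgeR (2 with an unadjusted p under 0.05, 3 in the exact test, 1 in DESeq2 and 0 in voom), and those that rose at 96 h included PDGFRA, PTCH1, COL1A1 and COL1A2. Without the animals over 20 months, 0 of the 12 passed at 96 h. Their summed level, most of it collagen and decorin RNA, ran between 2637 and 5122 CPM in vehicle, between 4609 and 8250 CPM after 48 h and between 6833 and 18640 CPM after 96 h. The 2 highest libraries, TP15 with 18640 CPM and TP17 with 16490 CPM, were also the highest for MYH11, CALD1 and TPM2. Across the 10 libraries the stroma sum went with CALD1 (r = 0.93, n = 10, log2 scale), MYH11 (r = 0.89), the joined SMTN locus (r = 0.94) and MYLK (r = 0.87), and less with ACTA2 (r = 0.64) and TAGLN (r = 0.45). It went least with TPM1 (r = 0.14) and CNN1 (r = 0.07). These links were not particular to stroma. CALD1 had r = 0.94 with the macrophage sum and 0.92 with the sum of vascular smooth muscle and pericytes. MYH11 had 0.81 and 0.86 in the same order, and MYLK had r = -0.93 with the germ cell sum. TP08, with the highest ACTA2 of all, had a stroma sum of 4609 CPM, inside the vehicle range. The part of the stroma in the members' levels was not tested.

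**Figure D5:**
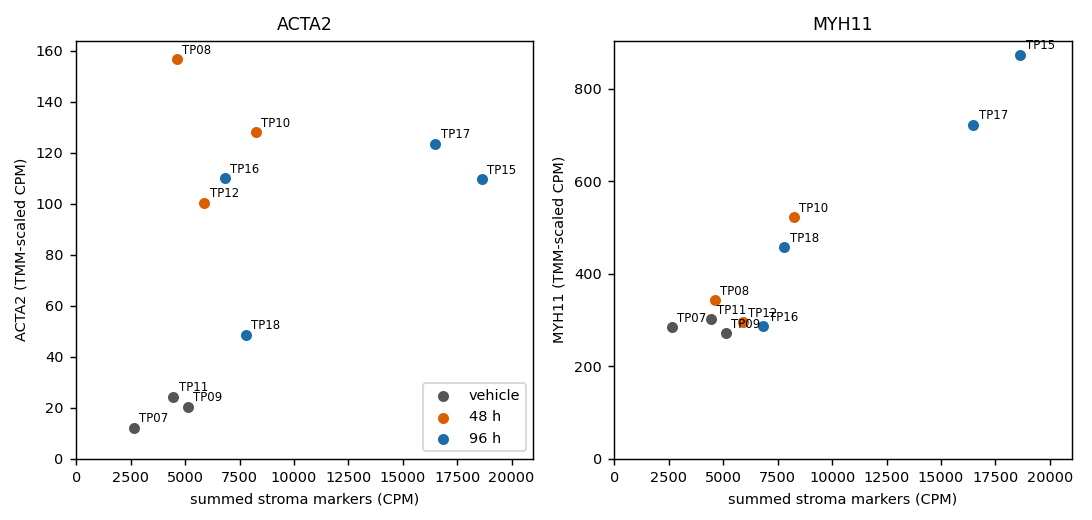
ACTA2 (left) and MYH11 (right), in TMM-scaled CPM, against the summed level of 12 stroma markers in CPM, for each animal; axes start at 0. MYH11 is highest in TP15 and TP17, which have the highest stroma sums, while ACTA2 is highest in TP08, whose stroma sum lies in the vehicle range.

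The hormone target cells moved in the same libraries. Of 6 Leydig cell genes, which make androgen under LH, 5 rose at both times, with medians of 3.14 and 2.72 on the log2 scale. Their sum ran between 196 and 346 CPM in vehicle, between 1710 and 2113 CPM after 48 h and between 1256 and 1584 CPM after 96 h, with TP18 the lowest of the treated animals as it was for ACTA2. Across the 10 libraries the Leydig sum went with ACTA2 (r = 0.97, n = 10), MYLK (r = 0.85) and TAGLN (r = 0.84), and less with MYH11 (r = 0.50); its part in those levels was not tested. Of 9 Sertoli cell genes 3 rose at 48 h and 5 at 96 h, of 8 macrophage genes 0 and 3 rose, and of 5 germ cell genes 1 and 4 fell. Over all loci, 8.53% rose at 48 h and 10.6% at 96 h, and 3.67% and 6.89% fell. Without the animals over 20 months the Sertoli counts were 1 and 2, and the macrophage and germ cell counts were 0 at both times.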

How the data were processed

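Total RNA of the right testis of 10 monkeys was sequenced from stranded libraries. Per the submitters' processing notes, rheMac8 was the genome and the named software comprised HTSeq 0.6.1p1, Bowtie2 2.2.8, edgeR, Cufflinks 2.2.1, TopHat2 2.1.1 and cutadapt 1.9.1. The authors deposited whole-number counts per assembled locus, CPM per library, transcript models, and their log2 fold changes and p-values; the authors' values other than counts, models and symbols were not used in the results. Kept loci held 98.53% to 98.96% of each library, and every locus had at least 1 CPM in 3 libraries. A floor of 3 counts is 0.099 to 0.137 CPM and covers counting error only. The counts of 10 libraries were fitted together with edgeR 4.0.16 (R 4.3.3; TMM, robust quasi-likelihood, group means), tested on simulated data first. Fold changes are group contrasts adjusted over 26813 loci. Alternatives used limma 3.58.1 and DESeq2 1.42.0. Exon lengths and coordinates came from the deposited models. All replicate pairs differed by more than sampling noise (chi-square per degree of freedom 15.8 to 49.9). Members and all 12 lists (5 of genes, 7 of markers) were chosen with earlier results of these data known, and the result of 1 stroma marker is not reported here. Of each list, up to 4 genes with the smallest p in each comparison with vehicle, and some genes regardless of their values (SRF, MYOCD, MRTFA, MRTFB, MYL9, DES, RGS5, NOTCH3, PDGFRB, ACTB, ACTG1, MYH9, MYH10), were to be named; others were named because they passed, after their values were seen. Likeness used the highest-count locus of each symbol whose mean log2 CPM was not below 0.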

Additional observations from a re-analysis of the deposited data

How the results depend on the processing

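The labels give no replicate number shared between groups, so the age class served as the block that pairs vehicle and 48 h animals of like age; it was added after seeing the data and called 3 of the 9 genes at 48 h. The number of the 9 genes called was 2 at 48 h with upper-quartile scaling and 2 without the animals over 20 months, and ran from 2 to 5 when 1 animal was left out. At 96 h it was 3 with age as a covariate, 1 without the animals over 20 months and 1 with the age class as a block, and ran from 1 to 6 when 1 animal was left out. With 1 animal left out, 4.62% to 8.73% of all loci rose at 48 h. At 96 h that share ran from 5.94% to 10.4%. For 96 h against 48 h the number of the 9 genes called was 1 (TAGLN) with the exact test of edgeR, 1 with DESeq2 and 1 with limma voom. TAGLN was lower there, as were 0.791%, 2.81% and 0.246% of all loci in the same order. Differences that changed sign missed the threshold in every setting: TPM1 at 96 h was 0.03 with age as a covariate and 0.04 without the animals over 20 months (-0.09 to 0.05 with 1 animal left out). For 96 h against 48 h, CNN1 was -0.24 to 0.07 with 1 animal left out. MYLK was -0.01 with age as a covariate, -0.04 with the age block and -0.05 to 0.12 with 1 animal left out, and TPM2 was -0.02, -0.15 and -0.01 to 0.20 under the same settings. The cause was not tested. A lone sample left in an age class is assumed to vary like the others. The promoter motif search and the protein identities planned were not run.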
